A study of Homo sapiens with 6 samples.

Results

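The comparison described here is doxycycline treatment of NpBI-206AS cells, an engineered derivative of RD18, an established human line of embryonal rhabdomyosarcoma, a childhood sarcoma that resembles muscle precursors. It was read as the log2 expression on the array of induced cells minus that on the array of non-induced cells, with 1 array per condition. Genes were included when their array row carried 1 gene symbol and their mean log2 level over these 2 arrays was above 6, which kept 10227 of the 18417 genes with a single symbol. The 2 arrays belong to a set of 6, in which the other 4 come from RD18 NpBI-22 cells, 2 induced and 2 non-induced. The submitters describe the NpBI-22 cultures as biological replicates and the NpBI-206AS cultures as additional controls. All cells were grown in the same serum-containing medium, and induced cells of both lines received 1 µg/ml doxycycline, a tetracycline antibiotic used to switch on engineered genes, for 6 days. Non-induced cells were left untreated. The labels do not say what the NpBI-206AS construct expresses or whether the line is 1 clone, so doxycycline itself and any product of the construct cannot be told apart. In NpBI-22 cells the same treatment accompanied a 3.53 higher log2 level of MIR22HG, the host gene of miR-22, whereas in NpBI-206AS cells MIR22HG was 6.41 without and 6.32 with doxycycline.

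Cholesterol and fatty acid enzymes are controlled together by the SREBP transcription factors, which SCAP carries out of the endoplasmic reticulum when membrane sterol is low and which INSIG proteins hold back when it is high. INSIG1 is itself an SREBP target, so its RNA is a common readout of the pathway. NF-kB factors drive chemokine genes such as CXCL1 and CXCL2 together with their own inhibitor NFKBIA, and E2F factors drive the genes of DNA replication. The lists below cover these pathways and others. They were chosen with earlier results of these data known, so their counts describe the data and are not independent support.

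The tumour type was read first from its markers. Of 8 markers of rhabdomyosarcoma and immature muscle, 7 lay above the level. The myogenic regulator MYOD1 was 9.37 without and 9.32 with doxycycline, myogenin (MYOG) 8.86 and 8.57, the intermediate filament desmin (DES) 8.81 and 8.96, and the receptor FGFR4 8.69 and 8.95. MYF5 stood at 3.88 and 3.89, below the level. Of 24 markers of endothelial, blood, epithelial, neural and fibroblast cells, 6 lay above the level (TEK, CD68, KRT8, KRT18, MAP2 and COL1A1), and defining markers such as PECAM1, PTPRC, EPCAM and PDGFRA stood between 2.66 and 4.27 on both NpBI-206AS arrays.

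Few genes were far apart between the 2 arrays. At least 2-fold higher with doxycycline were 3 genes (0.0293% of the 10227), and at least 2-fold lower were 9 (0.0880%). At 1.5-fold the counts were 44 higher (0.430%) and 69 lower (0.675%). By any amount, 4502 genes were higher (44.0%) and 5683 lower (55.6%), and the median difference was -0.03. The median moved with the level, from 0.03 for genes between 6 and 7 to -0.07 for genes above 10. With 1 array per condition the differences have no replicate check and no test was run. The other arrays give the only yardstick of spread. Non-induced NpBI-206AS cells and the second non-induced NpBI-22 culture, whose array codes share the prefix R587 with the induced NpBI-206AS array, differed by at least 2-fold in 29 genes (10 higher and 19 lower in NpBI-206AS), more than the 12 genes separated by doxycycline. The SD of the difference over genes was 0.186 for that untreated pair and 0.204 for the doxycycline pair. The 2 induced NpBI-22 replicates had an SD of 0.237 with 3 genes past 2-fold, and the 2 non-induced ones, which carry different prefixes, 0.354 with 78. Both induced NpBI-22 arrays carry the prefix R715 and the non-induced ones R509 and R587. Doxycycline and array prefix therefore cannot be told apart in that line.

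A second description asked whether the induced NpBI-206AS array lay outside all 3 non-induced arrays of the series, 1 of NpBI-206AS and 2 of NpBI-22 cells. Over all genes, 2109 (20.6%) were above all 3 and 1938 (18.9%) below all 3, so for a single gene this position is common. This position requires passing the non-induced NpBI-206AS array, so it is not separate from being higher or lower. Of the 4502 genes higher by any amount 2109 lay above all 3, and of the 5683 lower 1938 lay below. Of the 44 genes at least 1.5-fold higher, 35 lay above all 3, and of the 69 at least 1.5-fold lower, 36 lay below all 3. Both groups were chosen by their difference from 1 of these 3 arrays, which fixes part of that outcome. In 53 of those 69 genes the non-induced NpBI-206AS array was the highest of the 3 untreated arrays, and in 20 of the 44 it was the lowest. Choosing genes by their difference from that array favours such genes, and how much of these differences is particular to that 1 untreated culture was not tested.

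The 9 genes at least 2-fold lower included a secreted protease inhibitor, 3 chemokines and genes of fat oxidation and cell adhesion. TFPI2, an inhibitor of serine proteases in the matrix around cells, read 9.16 without and 6.89 with doxycycline, a log2 difference of -2.27 or 4.82-fold. It was the lowest of the 6 arrays in induced NpBI-206AS cells, beside 7.30 and 7.90 in non-induced and 7.17 and 7.54 in induced NpBI-22 cells. The non-induced NpBI-206AS array was thus the one that stood apart for TFPI2, and against the second non-induced NpBI-22 culture the difference was -1.01. CXCL2, a chemokine that attracts neutrophils, read 7.57 without and 5.97 with doxycycline, a difference of -1.60. CXCL1, its close relative, read 8.23 and 6.81, a difference of -1.42. For both chemokines the induced array lay below all 3 non-induced arrays (6.78 and 6.96 for CXCL2 and 7.60 and 7.51 for CXCL1 in non-induced NpBI-22 cells).

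CPT1A, which admits long-chain fatty acids to mitochondria for oxidation, read 7.27 without and 5.96 with doxycycline, and NRP2, a co-receptor for semaphorins and VEGF, 7.74 and 6.57. Both were below all 3 non-induced arrays, and both were lower still in the induced NpBI-22 cultures, at 5.14 and 4.99 for CPT1A and 5.57 and 5.47 for NRP2. RAB39A, a small GTPase of vesicle traffic, read 6.96 and 5.95, below the 6.14 and 6.28 of non-induced NpBI-22 cells. The other 3 genes were lower than in non-induced NpBI-206AS cells only within the range of the untreated arrays. The chemokine CCL2 read 9.69 and 8.45 beside 7.42 and 8.47 in non-induced NpBI-22 cells, the integrin chain ITGB8 8.98 and 7.67 beside 7.21 and 7.87, and GLIPR1 8.69 and 7.61 beside 7.51 and 7.77. Among the genes at least 2-fold lower, CXCL2, CPT1A and RAB39A were above 6 only without doxycycline.

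**Figure D1:**
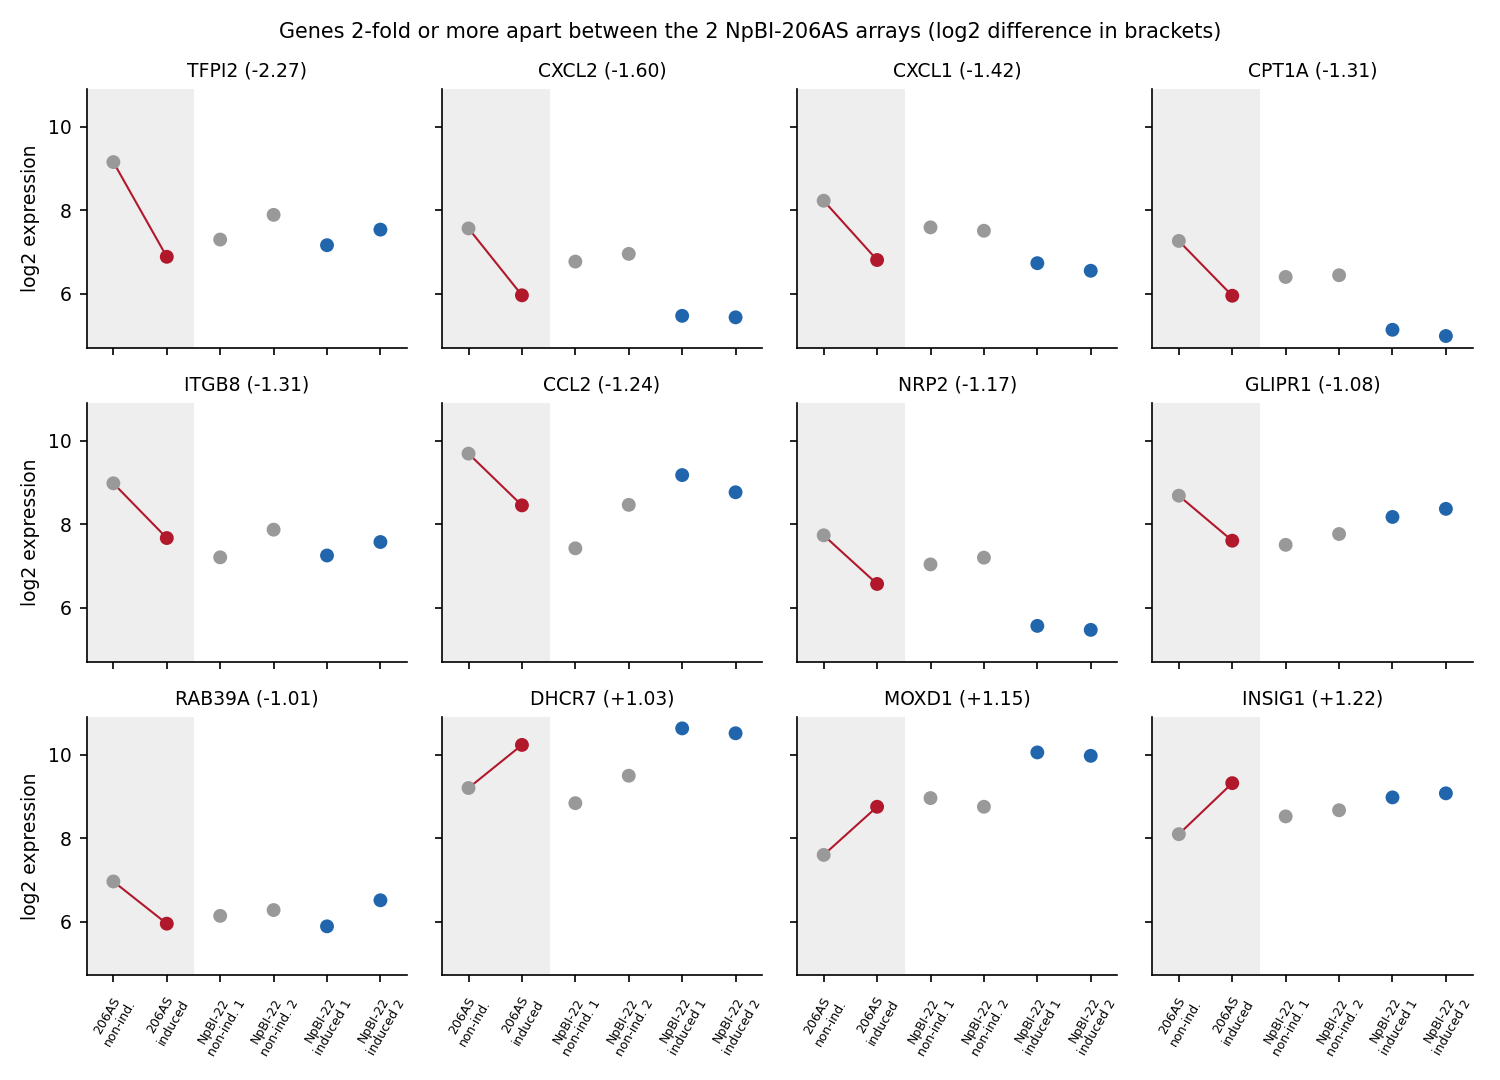
Log2 expression (vertical axis) of the 12 genes at least 2-fold apart between the 2 NpBI-206AS arrays, 1 panel per gene, on all 6 arrays (horizontal axis). Grey points are non-induced arrays, red the induced NpBI-206AS array and blue the induced NpBI-22 arrays; each point is 1 array with no error bar, and the red line joins the 2 arrays compared. In all 9 genes with a negative difference the non-induced NpBI-206AS array is the highest of the 3 grey points.

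The 3 genes at least 2-fold higher were INSIG1, MOXD1 and DHCR7. INSIG1, the sterol-sensing retention protein, read 8.09 without and 9.32 with doxycycline, a log2 difference of 1.22 or 2.33-fold, and was above 8.52 and 8.67 in non-induced NpBI-22 cells. DHCR7, the enzyme of the last step of cholesterol synthesis, read 9.20 and 10.23, above 8.84 and 9.49. MOXD1, a monooxygenase-like protein, read 7.60 and 8.75, which was no higher than the 8.96 and 8.75 of the untreated NpBI-22 cultures. Among the 15 genes with the largest positive differences, 7 belonged to the 5 lists of sterol and fatty acid genes (INSIG1, DHCR7, ACSS2, HMGCS1, MVK, FADS2 and TM7SF2). These lists hold 60 genes above the level, 0.587% of all, and supplied 14 of the 44 genes at least 1.5-fold higher, 31.8% of them. Of the 14, TM7SF2 and SREBF1 passed the level only through the induced array, at 5.94 and 5.99 without doxycycline.

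Of the enzymes of cholesterol synthesis, 19 lay above the level and 18 of them were higher with doxycycline, where 44.0% of all genes were. The median difference was 0.49, against -0.03 over all genes. At least 1.5-fold higher were 8 of 19, where 0.430% of all genes were. TM7SF2, 1 of these 8, passed the level only through the induced array. Above all 3 non-induced arrays lay 17 of 19, where 20.6% of all genes did. Of the 4502 genes higher by any amount, 2109 did. At the start of the pathway, ACAT2, which joins acetyl units, read 9.66 without and 10.41 with doxycycline beside 9.75 and 9.95 in untreated NpBI-22 cells. HMGCS1, which makes HMG-CoA, read 9.48 and 10.36 beside 9.42 and 9.93. Mevalonate kinase (MVK) read 7.25 and 8.11 beside 6.62 and 7.33. In each of these 3 genes the induced array was the highest of the 4 arrays named.

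In the middle of the pathway the differences were 0.54 for MVD, 0.39 for IDI1 and 0.48 for FDPS, which lead to farnesyl diphosphate, but 0.11 for PMVK and 0.01 for GGPS1, which makes the geranylgeranyl branch. SQLE, which oxidises squalene in the first oxygen-dependent step, read 9.58 without and 10.20 with doxycycline beside 9.57 and 9.84 in untreated NpBI-22 cells. The cyclase LSS differed by 0.49, and the demethylase CYP51A1 and the desaturase SC5D by 0.38 each. Among the later steps, TM7SF2 (5.94 to 6.70), ERG28 (9.72 to 10.39) and MSMO1 (9.11 to 9.73) were all at least 1.5-fold higher. NSDHL at 0.21 and EBP at 0.13 were closer to the median of all genes. LBR, a sterol reductase that also anchors chromatin to the nuclear envelope, was the 1 member lower, at 10.33 and 10.28. HSD17B7P2, a pseudogene of HSD17B7 whose probes may also read its parent, read 6.46 without and 7.37 with doxycycline.

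The same list in NpBI-22 cells had a median of 0.54, with 0.37 to 0.64 over the 4 pairs of an induced and a non-induced array. Between the 2 non-induced NpBI-22 replicates the list's median was -0.35 and between the 2 induced ones -0.01. The untreated cultures thus also differed in this pathway, by less than the 2 NpBI-206AS arrays. Against the second non-induced NpBI-22 culture the list's median in induced NpBI-206AS cells was 0.36.

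**Figure D2:**
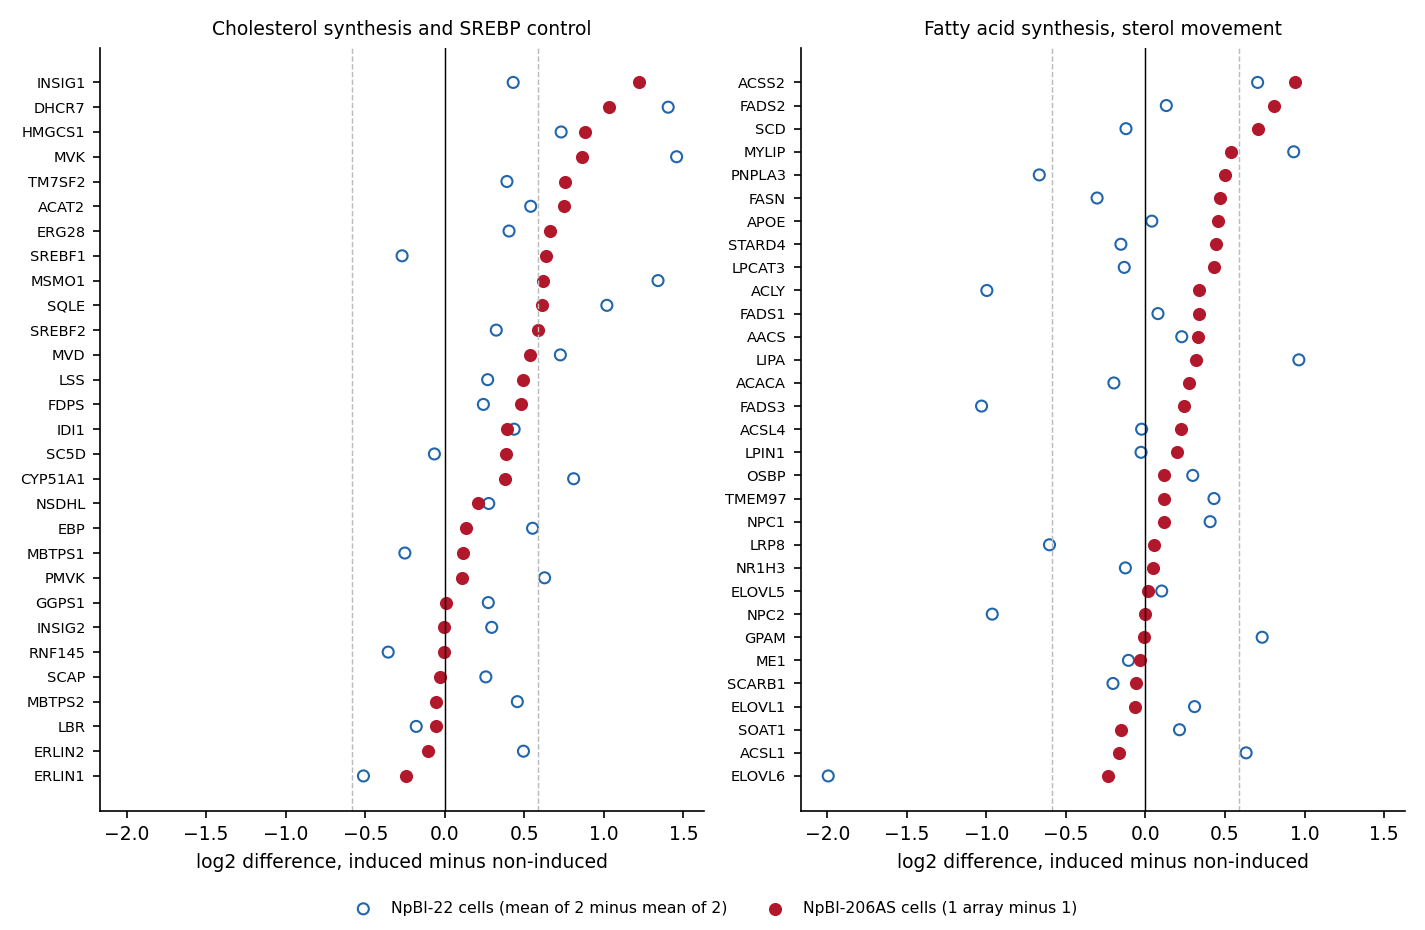
Log2 difference of induced minus non-induced cells (horizontal axis) for each gene above the level in the lists of cholesterol synthesis and SREBP control (left) and of fatty acid synthesis, sterol uptake, transport and efflux (right). Red points are NpBI-206AS cells, open blue points NpBI-22 cells, and dashed lines mark 1.5-fold; there are no error bars. On the left most red points lie right of 0 and most blue ones do too, while on the right genes such as SCD, PNPLA3 and ACLY have a red point right of 0 and a blue point left of it.

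Of 10 regulators of SREBP, 4 were higher with doxycycline and 6 lower, where 44.0% and 55.6% of all genes were. The median was -0.01 (above 0 under quantile normalization and cyclic loess). At least 1.5-fold higher were 3, INSIG1 and both factors, where 0.430% of all genes were. SREBF2, the factor for sterol genes, read 7.80 without and 8.39 with doxycycline beside 8.14 and 8.09 in untreated NpBI-22 cells. SREBF1, the factor for fatty acid genes, read 5.99 and 6.63 beside 6.43 and 6.37, and so passed the level only through the induced array. Both lay above all 3 untreated arrays, and for both the non-induced NpBI-206AS array was the lowest of them. The escort SCAP (7.87 and 7.84), the second retention protein INSIG2 (7.87 and 7.86), and the proteases MBTPS1 (0.11) and MBTPS2 (-0.05) lay near the median of all genes. ERLIN1, an endoplasmic reticulum protein of the same list, read 10.58 and 10.34.

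Promoter sequences of these genes are shown to place the motifs that the regulators are known to read. They come from RefSeq, build GRCh38.p14, and cover the 250 bases before each gene's start on the gene's strand, with 8362 of the 10227 genes matched. The sterol regulatory element, spelled TCACNCCAC and searched on both strands, was present in 1.18% of these genes and in SREBF2 alone of the 8 regulators matched, while none of 17 matched enzymes of cholesterol synthesis held these exact letters. A CCAAT box, spelled CCAAT and read by NF-Y, which binds beside SREBP at many sterol genes, was present in 42.3% of the genes and in 14 of the 17 enzymes. The element of SREBF2 is shown first and the CCAAT box of the 4 genes with large differences after it, each in capitals, with INSIG1 chosen after its values were seen. ATTGG is the CCAAT box on the other strand. The SREBF2 stretch is chr22:41832942-41833010 on the plus strand, and those of INSIG1, HMGCS1, MVK and DHCR7 are chr7:155297678-155297742 (plus), chr5:43313533-43313597 (minus), chr12:109573554-109573618 (plus) and chr11:71448453-71448517 (minus).
SREBF2: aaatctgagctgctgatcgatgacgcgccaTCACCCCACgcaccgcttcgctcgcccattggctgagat
INSIG1: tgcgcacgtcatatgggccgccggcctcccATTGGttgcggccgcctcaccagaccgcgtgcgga
HMGCS1: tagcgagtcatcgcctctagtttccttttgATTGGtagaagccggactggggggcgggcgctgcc
MVK: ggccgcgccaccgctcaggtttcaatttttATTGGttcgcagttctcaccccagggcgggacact
DHCR7: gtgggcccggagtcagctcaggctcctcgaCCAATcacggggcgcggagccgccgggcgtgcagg

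Fatty acid synthesis was higher in NpBI-206AS cells in 13 of 18 genes above the level, with a median of 0.26. Past 1.5-fold were 3 of 18, and 10 of 18 lay above all 3 untreated arrays. Over all genes the 3 shares were 44.0%, 0.430% and 20.6%. ACSS2, which makes acetyl-CoA from acetate, read 6.89 without and 7.83 with doxycycline beside 6.32 and 7.01 in untreated NpBI-22 cells. The desaturase FADS2 read 6.80 and 7.60 beside 7.42 and 6.91. Stearoyl-CoA desaturase (SCD) read 10.63 and 11.34 beside 10.81 and 10.87. All 3 lay above the untreated arrays. ACLY, the source of cytosolic acetyl-CoA, differed by 0.34, the synthase FASN by 0.47 and PNPLA3, a lipase that SREBF1 controls, by 0.50. The elongase ELOVL6 was the lowest of the list at -0.24 (0.09 against the second non-induced NpBI-22 culture). In NpBI-22 cells the list's median was -0.03, and SCD (-0.12), PNPLA3 (-0.67) and FASN (-0.30) were lower with doxycycline. That the 2 lines differ in this list was not tested.

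Of 10 genes of sterol uptake and transport above the level, 7 were higher, where 44.0% of all genes were. None passed 1.5-fold, and the median was 0.11. MYLIP, a ubiquitin ligase that limits lipoprotein uptake, read 7.02 and 7.56, and STARD4, a carrier of free cholesterol, 8.70 and 9.14. Of the efflux genes, 3 were above the level, among them APOE (6.89 and 7.34) and LPCAT3 (9.72 and 10.15), both above all 3 untreated arrays. The sterol transporter ABCA1 was below the level, at 4.84 and 5.51. FABP3, a carrier of fatty acids in muscle, read 7.10 and 7.89, above 6.83 and 7.61 in untreated NpBI-22 cells.

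The list of chemokines and interleukins had 28 genes measured but only 7 above the level. Of these, 6 were lower with doxycycline, where 55.6% of all genes were. At least 2-fold lower were 3, where 0.0880% of all genes were. At least 1.5-fold lower were 4, where 0.675% of all genes were. CXCL2 and IL32 were above 6 only without doxycycline, so the median of -0.61 over these 7 describes only them; over all 28 genes it was -0.09. The median over genes above the level was -0.35 against the second non-induced NpBI-22 culture, -0.17 against the mean of the 3 non-induced arrays and -0.95 with arrays centred on their median. Besides CXCL1, CXCL2 and CCL2, the neutrophil chemokine CXCL8 read 8.55 without and 7.93 with doxycycline, within the 6.94 and 8.29 of untreated NpBI-22 cells. IL32 (6.09 and 5.93), CCL5 (6.81 and 6.75) and IL11 (6.22 and 6.38) differed little. Below the level, CCL20 read 6.51 and 5.01 and IL6 5.46 and 4.57. Of the 7, CXCL8, CXCL2, CXCL1 and IL32 were also lower in induced NpBI-22 cells (-1.86, -1.41, -0.91 and -0.55), but CCL2 was higher there (1.03).

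NF-kB factors, their inhibitors and feedback genes were lower in 13 of 17 above the level, where 55.6% of all genes were, and 8 lay below all 3 untreated arrays, where 18.9% of all genes did. The median was -0.16, and -0.08 against the second non-induced NpBI-22 culture. NFKBIA, the inhibitor that NF-kB itself induces, read 8.67 without and 7.82 with doxycycline beside 8.41 and 8.35 in untreated NpBI-22 cells, and was the 1 member past 1.5-fold. SOD2, the mitochondrial superoxide dismutase, read 10.02 and 9.52 beside 9.60 and 9.96. TNIP1, a partner of the A20 inhibitor, read 7.61 and 7.15 beside 7.27 and 7.17. All 3 were below the untreated arrays, although TNIP1 by only 0.02. The subunits themselves differed less, NFKB1 and NFKB2 by -0.24 each, RELB by -0.27 and RELA by 0.12. Between replicates the list's median was 0.09 and 0.10.

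NF-kB sites, spelled GGG, any 3 bases, then TTCC, and searched on both strands of the same 250 bases, were present in 8.62% of the matched genes of the rule, in 3 of 5 matched chemokines, in 8 of 14 genes of the NF-kB list, in 8 of 51 matched genes at least 1.5-fold lower and in 1 of 35 at least 1.5-fold higher. The sites of CXCL1, CXCL2 and NFKBIA are shown because these genes had the largest differences of their lists, and that of TFPI2 was added after its values were seen. The capitals mark the site, which in NFKBIA lies on the other strand. The stretches are chr4:73869284-73869353 (plus), chr4:74099234-74099303 (minus), chr14:35404791-35404860 (minus) and chr7:93890866-93890935 (minus), in that order.
CXCL1: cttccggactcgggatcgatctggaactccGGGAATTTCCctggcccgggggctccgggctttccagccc
CXCL2: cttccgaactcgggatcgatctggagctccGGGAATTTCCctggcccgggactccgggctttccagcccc
NFKBIA: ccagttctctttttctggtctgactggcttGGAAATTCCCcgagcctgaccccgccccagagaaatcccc
TFPI2: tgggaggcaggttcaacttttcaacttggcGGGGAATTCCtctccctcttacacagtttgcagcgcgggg
CXCL1 and CXCL2 are identical in 38 of the 40 bases up to the end of the site. Their transcripts are also alike, and how far their array rows read each other's RNA was not tested.

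Around TFPI2, other genes of proteolysis at the cell surface were read by role. The urokinase receptor PLAUR read 9.29 without and 8.52 with doxycycline beside 8.75 and 8.65 in untreated NpBI-22 cells, and SERPINE2, an inhibitor of thrombin and urokinase, 9.41 and 8.79 beside 9.91 and 9.11. Both lay below all 3 untreated arrays. Urokinase (PLAU) itself differed by -0.56 but stayed within the untreated range, at 10.94 and 10.38 beside 10.35 and 10.56. TFPI, the relative of TFPI2 that restrains the start of clotting, was 9.91 and 10.01. Of 15 protease inhibitors and clotting regulators above the level, 10 were higher and 5 lower, with a median of 0.06, so the list as a whole did not share the direction of TFPI2. Of 16 surface and matrix proteases, 7 were higher and 9 lower, near the shares over all genes (44.0% higher and 55.6% lower).

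Genes of cell division gave small differences in one direction. Over 4 lists together (DNA replication, nucleotide synthesis, recombination and repair, mitosis), 144 of 145 genes above the level were lower with doxycycline, where 55.6% of all genes were. The median was -0.30, and 101 of the 145 (69.7%) lay below all 3 untreated arrays, where 18.9% of all genes did. Of the 5683 genes lower by any amount, 1938 did. Only 6 of the 145 (4.14%) were at least 1.5-fold lower, beside 0.675% of all genes. Genes of division vary together, so the 145 are not independent observations, and the difference is that between 2 cultures.

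In DNA replication 49 of 50 genes were lower, with a median of -0.32. MCM10, which helps to open the helicase, read 8.45 without and 7.78 with doxycycline beside 8.44 and 8.35 in untreated NpBI-22 cells. PRIM1, the catalytic subunit of primase, read 9.99 and 9.33 beside 9.83 and 10.04. CDC45, a part of the active helicase, read 8.80 and 8.18 beside 8.61 and 8.79. These 3 were below the untreated arrays. ORC6, of the origin recognition complex, read 9.34 and 8.70, within the range set by 8.61 in the first untreated NpBI-22 culture. CHTF18, a clamp loader subunit, was the 1 gene higher, at 0.09. All 20 genes of nucleotide synthesis were lower, among them thymidylate synthase TYMS (-0.41) and the ribonucleotide reductase subunits RRM2 (-0.41) and RRM1 (-0.28). All 19 genes of recombination and repair were lower, led by XRCC2 (9.34 and 8.78) and RAD51AP1 (9.70 and 9.18), both below all 3 untreated arrays.

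All 56 genes of mitosis were lower, with a median of -0.29 and values from -0.63 to -0.05. SPC24, a kinetochore subunit, differed by -0.63 and read 7.37 with doxycycline, beside 7.91 and 7.78 in untreated NpBI-22 cells. The condensin subunit NCAPH read 9.23 and 8.63 beside 9.29 and 9.01. The spindle motor KIF15 read 8.46 and 7.89 beside 8.20 and 8.25. All 3 were below the untreated arrays. Common proliferation markers differed less, CCNB1 by -0.28, TOP2A by -0.10 and MKI67 by -0.12. In NpBI-22 cells the mitosis list had a median of -0.67 (-0.78 to -0.52 over 4 pairs), and the replication list -0.22 (-0.39 to -0.08).

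Replicates of one condition also differed in these lists. Between the 2 induced NpBI-22 cultures the replication median was 0.25 and the mitosis median -0.19, and between the 2 non-induced ones -0.15 and -0.03. The NpBI-206AS values of -0.32 and -0.29 were larger in size than each of these, though of the same order. Between the non-induced NpBI-206AS array and the second non-induced NpBI-22 array, which share a prefix, the medians were 0.02 and 0.08.

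Regulators of entry to the cycle did not share a direction, with 9 of 23 higher, 14 lower and a median of -0.02 (above 0 under quantile normalization and cyclic loess). The CDK inhibitor CDKN1A read 7.02 without and 7.58 with doxycycline, above 6.49 and 7.32 in untreated NpBI-22 cells, and TP53INP1, another target of p53, 5.84 and 6.70, above 5.78 and 6.02. TP53INP1 passed the level only through the induced array. Over all 25 targets of p53 above the level, 11 were higher and 14 lower, with a median of -0.02. The shares over all genes were 44.0% higher and 55.6% lower. Cyclin D2 (CCND2) differed by 0.46 and the phosphatase CDC25A by -0.43.

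**Figure D3:**
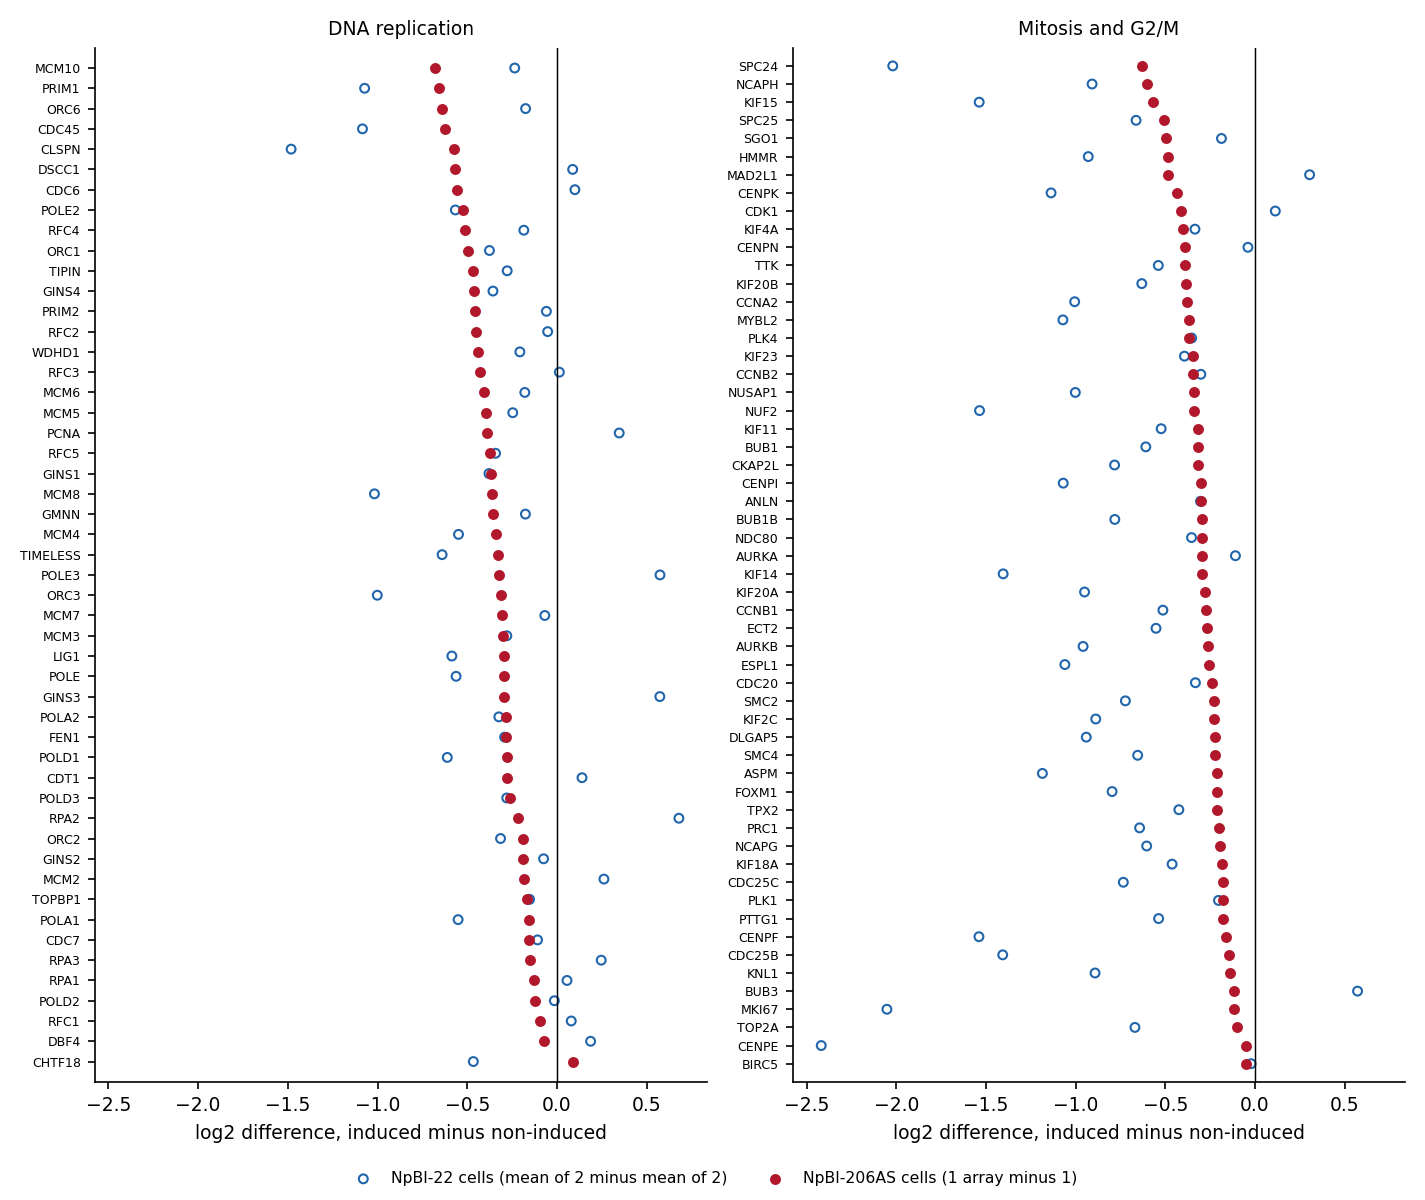
Log2 difference of induced minus non-induced cells (horizontal axis) for each gene above the level in the lists of DNA replication (50 genes, left) and mitosis (56 genes, right), ordered by the NpBI-206AS value. Red points are NpBI-206AS cells and open blue points NpBI-22 cells, without error bars. The red points form a narrow band left of 0, from -0.68 to 0.09 in replication and from -0.63 to -0.05 in mitosis, while the blue points spread from -2.42 (CENPE) to 0.68 (RPA2).

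E2F sites, spelled TTTNGCGC and searched on both strands of the 250 bases, were present in 3.13% of matched genes of the rule and in 11 of 43 matched replication genes. CCAAT boxes were present in 37 of 49 matched mitosis genes, against 42.3%. The E2F sites of 4 of these 11 genes, taken with their values known, are shown as examples of the match, in capitals, with ORC6 and POLA1 on the other strand. They are chr16:46689506-46689573 (plus), chr14:49688258-49688325 (minus), chr2:135876558-135876625 (minus) and chrX:24693751-24693818 (plus), and the genes differed by -0.64, -0.53, -0.41 and -0.16 in this order.
ORC6: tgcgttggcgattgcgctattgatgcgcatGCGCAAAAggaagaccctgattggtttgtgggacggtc
POLE2: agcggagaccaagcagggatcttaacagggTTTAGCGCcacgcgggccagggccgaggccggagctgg
MCM6: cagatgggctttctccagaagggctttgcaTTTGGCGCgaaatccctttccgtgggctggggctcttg
POLA1: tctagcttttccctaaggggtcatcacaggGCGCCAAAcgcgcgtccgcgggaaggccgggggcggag

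Histone genes were lower in 39 of 44 above the level, with a median of -0.25, and 33 of 44 lay below all 3 untreated arrays. Over all genes the shares were 55.6% and 18.9%. H2BC8 read 7.08 without and 6.29 with doxycycline beside 7.15 and 6.81, and H4C3 10.13 and 9.68 beside 11.32 and 10.23, both below the untreated arrays. Histone genes are near copies of each other, so their rows may read one another's RNA. In NpBI-22 cells the same list had a median of 0.76, and between the 2 induced NpBI-22 replicates 0.32.

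Muscle genes did not share a direction. Of 26 genes of contraction above the level, 15 were higher and 11 lower, with a median of 0.04 (-0.39 with the second non-induced NpBI-22 array as the reference). Among all genes 44.0% were higher and 55.6% lower. The nebulin gene NEB read 8.93 without and 9.48 with doxycycline, within the range set by 9.19 and 9.91 in untreated NpBI-22 cells. KLHL41, a partner of nebulin, read 9.66 and 10.38 beside 9.83 and 10.38. The receptor subunit CHRNG read 7.95 and 8.59 beside 8.31 and 8.59. Embryonic myosin MYH3 read 6.40 and 5.95 and titin (TTN) 6.43 and 6.15. For MYH3 both NpBI-206AS arrays lay below the untreated NpBI-22 cultures (8.02 and 7.69), as they did for titin (7.56 and 8.28). In NpBI-22 cells this list had a median of -1.04. Among 24 regulators of muscle identity the median was 0.04 (-0.14 with that reference). The inhibitors of differentiation ID1 (8.57 and 7.76) and ID3 (9.46 and 8.75) were at least 1.5-fold lower, ID3 below all 3 untreated arrays and ID1 within them. Myostatin (MSTN), which limits muscle growth, read 9.44 and 10.05 beside 9.68 and 10.51, within the untreated range.

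In the matrix, 17 of 22 collagen genes above the level were higher, where 44.0% of all genes were, with a median of 0.18. All 6 laminin chains above the level were higher, with a median of 0.26. Above all 3 untreated arrays lay 4 of the 6, where 20.6% of all genes did. Of all 10 laminin chains measured, 8 were higher and 2 lower. With the second non-induced NpBI-22 array as the reference the medians were 0.04 and 0.13, and with the mean of the 3 non-induced arrays 0.05 and 0.12. Under these references LAMA4 (0.21) became -0.71 and -0.55, and LAMA5 (0.30) became -0.21 and -0.13. LAMB2 read 7.38 without and 7.71 with doxycycline and LAMA2 8.83 and 9.14, and no laminin passed 1.5-fold. The proteoglycan BGN read 7.65 and 8.32, above 8.24 and 8.05 in untreated NpBI-22 cells. TGFBI, a matrix protein induced by TGF-beta, read 9.31 and 8.43 and LTBP2, another matrix protein, 6.96 and 6.37, both below all 3 untreated arrays. ANKRD1, a target of YAP, differed by -0.93 and read 7.57 with doxycycline, where untreated NpBI-22 cells stood at 9.80 and 9.58. Over the lists of TGF-beta targets (5 of 10 higher) and YAP and SRF targets (10 of 21 higher) the medians were -0.09 and -0.02, the latter above 0 under the same pair of scalings.

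Doxycycline is known to inhibit translation on mitochondrial ribosomes, so lists of mitochondrial and stress genes were read. Of 70 proteins of the mitochondrial ribosome 58 were lower, where 55.6% of all genes were, with a median of -0.10, and none passed 1.5-fold; the median between the 2 non-induced NpBI-22 replicates was -0.17. Of 60 respiratory chain genes, 26 were higher and 34 lower, with a median of -0.02 (above 0 under quantile normalization and cyclic loess). Mitochondrial chaperones and proteases were lower in 14 of 16, with a median of -0.13, led by HSPE1 (8.32 and 7.91). Factors of mitochondrial translation and transcription were lower in 20 of 23, and mitochondrial aminoacyl-tRNA synthetases in 12 of 16. Their medians were -0.12 and -0.13, and -0.07 and -0.02 against the second non-induced NpBI-22 culture. Genes of the endoplasmic reticulum unfolded protein response were lower in 16 of 22, heat shock genes in 10 of 13 and NRF2 and antioxidant genes in 18 of 23. The medians of these stress lists were -0.13, -0.15 and -0.10. Of 26 targets of ATF4, the factor of the integrated stress response, 7 were higher and 19 lower, with a median of -0.10 (0.04 against the mean of the 3 non-induced arrays). TRIB3 (5.81 and 6.19) was the highest of them and passed the level only through the induced array. SLC7A5, an amino acid carrier, read 8.63 and 8.01. In NpBI-22 cells the ATF4 list had a median of 0.39.

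The remaining lists named here had medians between -0.15 and 0.11. Cytosolic ribosomal proteins had a median of 0.02 over 60 genes (-0.0042 with arrays centred on their median). Glycolysis was lower in 18 of 22 genes, with a median of -0.13, and proteasome subunits in 38 of 42, with a median of -0.15, where 55.6% of all genes were lower. Against the mean of the 3 non-induced arrays these medians were -0.08 and -0.07. Interferon response genes were higher in 21 of 30, where 44.0% of all genes were, with a median of 0.11 (-0.01 against the second non-induced NpBI-22 culture) and ISG15 at 0.27. Hypoxia targets included VEGFA (7.52 and 6.92) and HILPDA (8.08 and 7.46), over a list median of -0.08 (0.05 with either other reference). Small nucleolar RNAs were lower in 73 of 102, with a median of -0.13. Among immediate early genes EGR1 read 7.66 and 8.31 and JUN 9.55 and 8.89, over a median of -0.03 for 15 genes. Metallothioneins went both ways, MT1F at 0.72 and MT2A at -0.58.

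**Figure D4:**
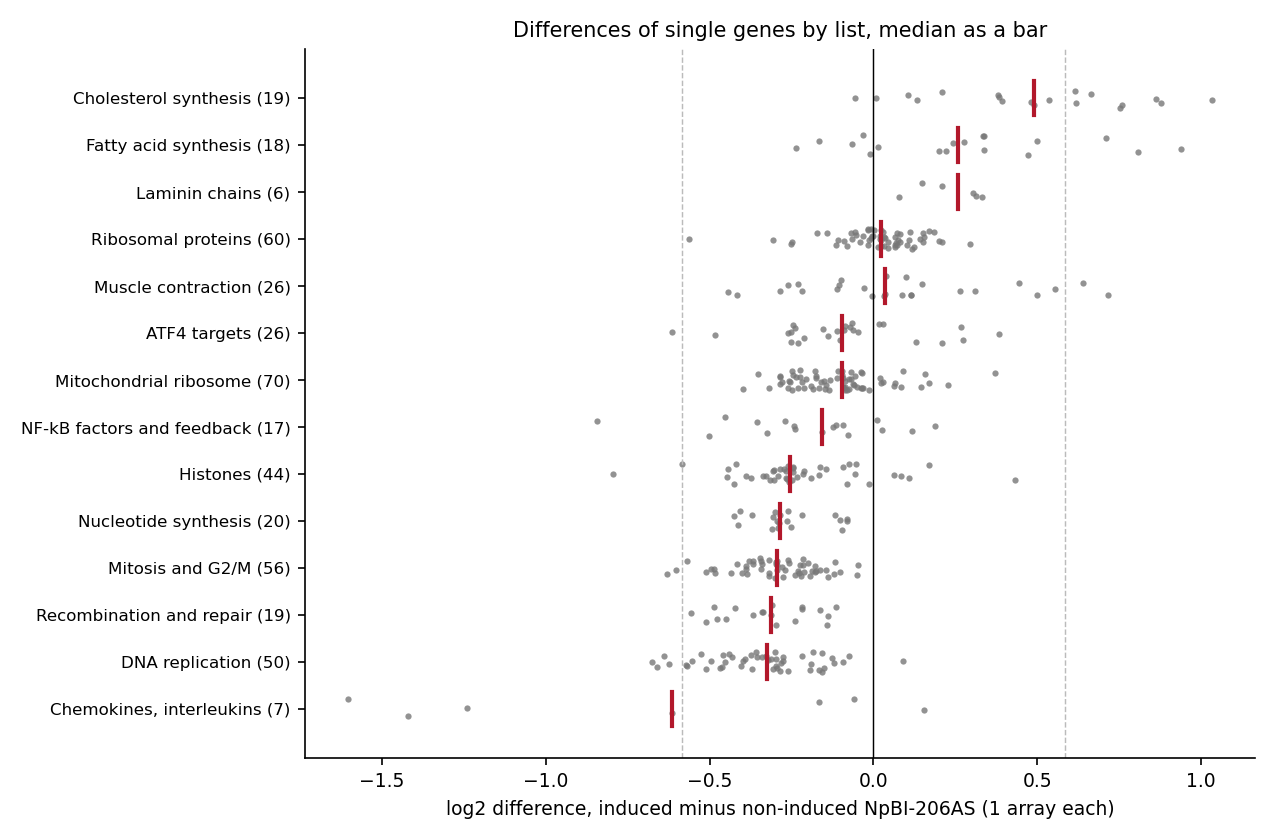
Log2 difference of induced minus non-induced NpBI-206AS cells (horizontal axis) for the genes of 14 lists, with the number above the level in brackets. Each grey point is 1 gene, the red bar the list's median, and dashed lines mark 1.5-fold. Cholesterol synthesis (median 0.49) lies to the right, replication (-0.32) and mitosis (-0.29) to the left with few points past 1.5-fold, and muscle contraction spreads on both sides of 0.

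**Figure D5:**
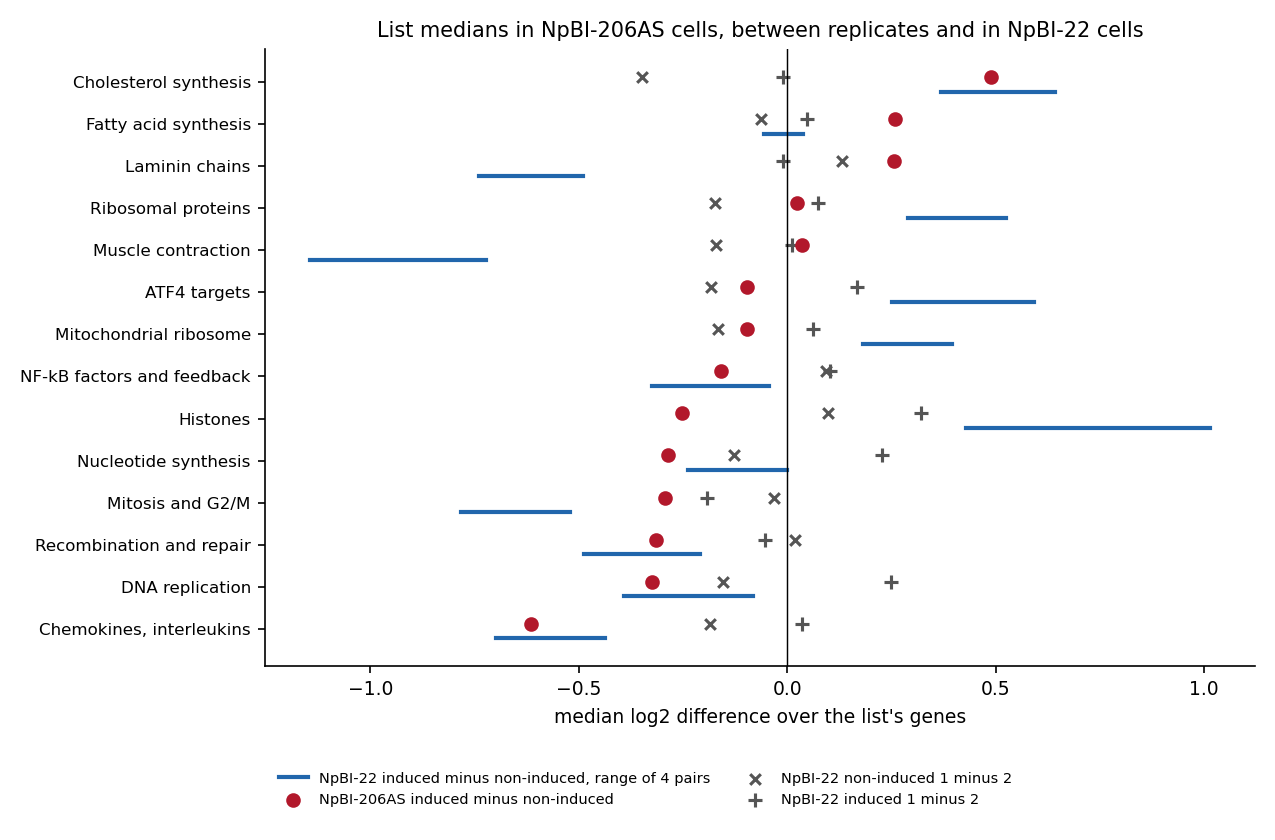
Median log2 difference over each list's genes (horizontal axis) in NpBI-206AS cells (red point), between replicates of NpBI-22 cells (crosses for non-induced 1 minus 2, plus signs for induced 1 minus 2) and in induced minus non-induced NpBI-22 cells (blue bar, range of the 4 array pairs). The red point for cholesterol synthesis (0.49) and the cross (-0.35) show how far untreated cultures also differed, and the red points of histones (-0.25) and laminins (0.26) lie on the other side of 0 from their blue bars.

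Among rows for microRNA genes, 22 lay above the level, with a median of 0.03. These rows read primary transcripts or precursors rather than mature microRNAs. MIR21 had the largest difference, at 6.76 without and 5.78 with doxycycline beside 6.11 and 6.69 in untreated NpBI-22 cells, below all 3 and below the level on the induced array. VMP1, the gene that MIR21 overlaps on the same strand, read 11.03 and 10.85. The MIR206 row, read because of the line's name, was 6.29 and 6.24. The mature miR-21-5p, at chr17:59841273-59841294 on the plus strand, is shown with its seed (bases 2 to 8) in capitals, since MIR21 is among the 15 largest negative differences.
hsa-miR-21-5p: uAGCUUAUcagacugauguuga

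The genes with large differences were also read in NpBI-22 cells. Of the 44 at least 1.5-fold higher, 35 (79.5%) were also higher in induced NpBI-22 cells, where 55.4% of all genes higher in NpBI-206AS cells were. Of the 69 at least 1.5-fold lower, 44 (63.8%) were also lower, where 47.3% of all lower genes were. The 2 comparisons share no array, but 3 of the 6 arrays carry the prefix R587 and both NpBI-206AS arrays are among them. In NpBI-22 cells the induced arrays share no prefix with the non-induced ones, so doxycycline and prefix cannot be told apart there. ABAT, an enzyme of GABA breakdown, read 6.95 and 7.75 in NpBI-206AS cells and differed by 1.44 in NpBI-22 cells, and TAGLN2, an actin-binding protein, read 7.14 and 7.96 and differed by 0.68. FNDC5, the irisin precursor, read 7.55 and 8.31 but stayed below the 8.76 and 8.82 of untreated NpBI-22 cells, and ADAM28 read 5.87 and 6.78 beside 6.03 and 6.80. ADAM28 passed the level only through the induced array. The neurofilament NEFM (7.08 and 6.18) and the centromere protein CENPH (6.95 and 6.06) were among the 15 largest negative differences.

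At the level threshold, SNRNP35, EFCAB11 and UBXN11 were the last genes inside and MIR133B, SHROOM1 and IL34 the first outside, all at a mean that rounds to 6. Among the 8190 genes at or below it, 5 were at least 2-fold higher and 3 at least 2-fold lower, named here after their values were seen. IL7R read 6.61 without and 4.85 with doxycycline and SPP1, the secreted matrix protein osteopontin, 6.54 and 5.43. MACC1 read 4.02 and 5.34.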

How the data were processed

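Each of the 6 RD18 cultures was read on 1 Affymetrix array, whose chip type only 2 arrays' labels name. The authors deposited log2 expression values. The submitters' processing notes name Partek and RMA; their versions and the genome build were not given in the sources used here. RMA gives all arrays nearly the same distribution and would hide a shift shared by all transcripts. The deposited table carries no detection calls and 1 array per condition limits the precision.

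Of 33297 rows, 19460 carried 1 symbol in the platform annotation (1754 several, 12083 none, from which no gene was named); 19429 had their gene ID in the NCBI table of GRCh38.p14, which gave current symbols. For 509 genes with several rows, the row with the highest mean over the 2 NpBI-206AS arrays was used. Differences were induced minus non-induced log2 values, counted past 2-fold and 1.5-fold, and the induced array was placed against all 3 non-induced arrays. No test was run. Groups came from the sample titles, and replicates of NpBI-22 cells served as a yardstick of spread.

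The members and the 60 lists and families were chosen with earlier results of these data known. Named genes were the 15 largest differences each way, INSIG1, TFPI2 and CXCL2, up to 4 members of each list in the direction of its median and 2 in the other, and members of lists of 25 or fewer by role; markers of cell types were read in full. Any other gene named (MIR206, MIR22HG, VMP1, genes beneath the level and a few members of long lists such as CCNB1, TOP2A and MKI67) was chosen after its values were seen. Promoter windows were printed for up to 4 members of a list that held its motif, with 30 bases on each side. The counting was checked on made-up arrays with known changes. Alternatives were other scalings of the arrays (median centring, quantile normalization, cyclic loess in limma 3.58.1 under R 4.3.3), other level minimums, averaged rows, other reference arrays and the lower fold. Calculations used Python 3.11.15 with pandas 2.3.3 and numpy 2.4.6.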

Additional observations from a re-analysis of the deposited data

Results flagged for a closer look

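In 3 of the 30 genes with the largest differences, the NpBI-206AS arrays and all 4 pairs of NpBI-22 arrays went opposite ways. CCL2 differed by -1.24 in NpBI-206AS cells and by 1.03 in NpBI-22 cells. GLIPR1 differed by -1.08 and 0.64, and MIR21 by -0.98 and 0.48. For CCL2 and GLIPR1 the induced NpBI-206AS array lay within the range of the untreated arrays. Of 52 lists with at least 5 genes above the level, 16 had a median opposite in sign to all 4 NpBI-22 pairs, and in 2 of these the NpBI-206AS median was at least 0.2 in size. Many of the 16 medians took both signs over the alternatives given below, among them muscle contraction, ATF4 targets and the respiratory chain. Histone genes had a median of -0.25 in NpBI-206AS cells and 0.76 in NpBI-22 cells, and laminin chains 0.26 and -0.62. Over the alternatives the histone median stayed between -0.28 and -0.22. The laminin median fell to 0.13 against the second non-induced NpBI-22 array and 0.12 against the mean of the 3 non-induced arrays. Sterol efflux, with only 3 genes, also lay opposite, at 0.43 and -0.13. These differences between the lines were not tested, since NpBI-206AS cells have 1 array per condition. In NpBI-22 cells the prefix of the arrays also changes with treatment, so the 2 cannot be told apart.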

How the results depend on the processing

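The median of cholesterol synthesis stayed between 0.36 and 0.54, that of DNA replication between -0.35 and -0.27 and that of mitosis between -0.32 and -0.23 under every alternative run. With the second non-induced NpBI-22 array in place of the non-induced NpBI-206AS array, the genes at least 2-fold lower became 24, TFPI2 became -1.01, INSIG1 0.65 and CXCL2 -0.99. Under that reference 43 of 315 named genes changed sign, and with the mean of the 3 non-induced arrays 35 did. Among named genes at least 1.5-fold apart these were MOXD1 (-0.0001), ADAM28 (-0.0181), FNDC5 (-0.51), KLHL41 (-0.0033) and MSTN (-0.47) under the first reference, and FNDC5 (-0.0631) and CXCL8 (0.0087) under the mean. Smaller differences that changed sign included NEB (-0.43), DES (-0.34) and ELOVL6 (0.09) under the first and MT2A (0.0089) and RELA (-0.037) under the mean. The genes at least 2-fold higher became 5 with that mean, 5 with a level minimum of 5, and 8 with none, a setting added after seeing the data. At 1.5-fold the counts were 44 higher and 69 lower. The 3 other scalings moved the share of higher genes from 44.0% to between 38.1% and 50.5%, and the median of all genes from -0.03 to between -0.05 and 0.00. The medians of 25 of 52 lists took both signs over the alternatives. Among those given above they were muscle contraction (-0.39 to 0.10), muscle regulators (-0.14 to 0.08), ribosomal proteins (-0.0042 to 0.09), the respiratory chain (-0.05 to 0.05), ATF4 targets (-0.15 to 0.04), interferon response (-0.01 to 0.14), hypoxia targets (-0.11 to 0.05), p53 targets (-0.07 to 0.07), YAP and SRF targets (-0.05 to 0.12), SREBP regulators (-0.03 to 0.06), regulators of cycle entry (-0.04 to 0.02), immediate early genes (-0.05 to 0.01) and microRNA genes (-0.11 to 0.14). No paired analysis was possible because NpBI-206AS cells have 1 array per condition. The deposited values hold no detection calls, so signal over background is unknown for genes near the level minimum.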
